A study of Mus musculus with 12 samples.

Results

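Mitochondrial ribosomal protein genes were followed in primary adult mouse cardiomyocytes treated with cytokines of the interleukin-6 family. A gene was taken when it was protein-coding, its symbol began with Mrpl (large subunit) or Mrps (small subunit) followed by a digit, and its normalized count reached 10 or more in 3 or more libraries. Of the 22915 genes in the deposited table, 77 met these criteria, 29 of the small and 48 of the large subunit by symbol, and no protein-coding gene with such a symbol fell below the limit. The lowest were Mrps18c, with normalized counts of 10 to 18 over the libraries, and Mrps36, with 10 to 21. A further 3 rows with such a symbol were processed pseudogenes and were left out. Cells came from male C57/Bl6 mice of 12 weeks and were kept in normoxia for 24 h with the solvent PBS (control), with murine LIF (mLIF), with murine OSM (mOSM) or with hlOSM, a murine OSM carrying the human sequence of a single loop. Per the study, mLIF signals through the LIF receptor, mOSM through the OSM receptor and hlOSM through both. Each condition had 3 libraries, 12 in all. The labels give 25 ng/ml for each cytokine and the methods of the study a lower concentration, and neither says whether the libraries of a condition came from separate cell preparations, so the p-values measure the spread between libraries, which may be technical. Replicate numbers held less of the spread within conditions than unrelated libraries would show. Whether an effect of the number was removed before deposit was not tested, and if so, the standard errors and p-values given here would be too small.

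Mitochondria keep a ribosome of their own, the mitoribosome, which makes the few proteins encoded by mitochondrial DNA, all of them subunits of the respiratory chain and ATP synthase. Its RNAs are transcribed inside the organelle, whereas its proteins are encoded in the nucleus, made in the cytosol and imported. The small subunit binds and decodes the mRNA, and the large subunit forms peptide bonds and releases the chain at a tunnel facing the inner membrane. Part of the proteins have a counterpart in the bacterial ribosome, and the others were added during the evolution of mitochondria. Cardiomyocytes are rich in mitochondria and depend on the respiratory chain for contraction. Mitochondrially encoded RNAs are not analysed here.

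The values are normalized counts that the authors rounded to whole numbers, and library totals on this scale lay between 2745748 and 2911891, so the sequencing depth behind a value is unknown. All 8 cardiomyocyte markers were detected in every library. Their sum was 16226 to 18008 in PBS, 13879 to 15461 with mLIF, 12681 to 14848 with mOSM and 13217 to 13648 with hlOSM, and 5, 6 and 6 of the 8 fell past the threshold with mLIF, mOSM and hlOSM. Markers of other cell types were present as well, with none at 0 throughout the libraries of the series. Sums of 6 fibroblast markers ranged from 1605 to 1874 in PBS and from 1387 to 1458 with hlOSM, of 6 endothelial markers from 1100 to 1158 and from 1341 to 1439, of 6 macrophage and leukocyte markers from 128 to 140 and from 180 to 255, and of 4 smooth muscle and pericyte markers from 495 to 658 and from 272 to 279. With mOSM these sums were 1437 to 1571, 1333 to 1537, 189 to 234 and 260 to 315, and with mLIF they were 1585 to 1600, 1089 to 1141, 136 to 158 and 456 to 508. The fibroblast markers did not all move the same way. Past the threshold, 0 rose and 1 fell with mLIF, 1 rose and 3 fell with mOSM, and 2 rose and 4 fell with hlOSM. The sum of the macrophage and leukocyte markers rose with Cd68, which had 40 to 61 in PBS and 109 to 170 with hlOSM and was the only 1 of the 4 tested to be called with any cytokine. The median log2 fold change of those 4 was −0.01 with hlOSM. The part of these shifts in the results on mitoribosomal genes was not tested, and in such bulk samples fewer cells of a type and less RNA per cell cannot be told apart.

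Levels of the 77 genes, as the mean normalized count over the 12 libraries, ran from 13.7 to 376 with a median of 116. Divided by the length of all annotated exons of a gene, the highest levels were those of Mrpl18 (174 per kb), which sits in the central protuberance of the large subunit, Mrpl41 (116 per kb) and the small subunit gene Mrps23 (112 per kb). The lowest were Mrpl23 (6.88 per kb), a protein at the rim of the exit tunnel, Mrps36 (11.4 per kb) and Mrps18c (12.7 per kb). The order depended on the length used. Divided by the principal transcript alone, Mrpl33 came first with 348 per kb, against 22.7 per kb and rank 64 by all exons, and Mrps26 came last with 14.3 per kb. On the transcript scale, the median level was 61.6 per kb for the small and 66.9 per kb for the large subunit.

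The first question of the design is what each cytokine did to these genes against PBS. Most of them were not called with any cytokine. At an adjusted p under 0.05 (limma, Benjamini-Hochberg over the 13184 genes tested), 3 of the 77 rose and 0 fell with mLIF, 6 rose and 0 fell with mOSM, and 8 rose and 2 fell with hlOSM. These are 3.90%, 7.79% and 13.0% of the members, against 9.91%, 31.2% and 37.9% of all genes tested. By direction, the background was 5.47% raised and 4.44% lowered for mLIF, 15.4% and 15.8% for mOSM, and 18.2% and 19.8% for hlOSM. At an unadjusted p under 0.05, 12, 13 and 14 of the 77 were counted with mLIF, mOSM and hlOSM, which is 15.6%, 16.9% and 18.2% beside 25.7%, 41.1% and 46.5% of all genes. The 8856 protein-coding genes with a mean between those of the lowest and the highest member had called shares close to those of all genes, at 9.72%, 30.3% and 37.3%.

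The estimates for the members were small as well as seldom called. With mLIF, mOSM and hlOSM, 93.5%, 92.2% and 89.6% of the members had an estimated log2 fold change of less than 0.32 in either direction, beside 81.2%, 68.9% and 64.7% of all genes. The median standard error of a log2 fold change among members was 0.0947, and the 95% interval lay wholly within 1.5-fold of no change for 70, 71 and 69 of the 77 genes. The median log2 fold change of the 77 was 0.0285 for mLIF, 0.0503 for mOSM and 0.0299 for hlOSM, beside 0.0004, −0.0043 and −0.0052 over all genes. Without any overlap of the 3 cytokine with the 3 PBS libraries, 11 members lay higher and 6 lower for mLIF, 13 and 1 for mOSM, and 13 and 4 for hlOSM. The background for such separation in either direction was 30.3%, 40.1% and 47% of all genes. By direction, of the 13184 genes tested, 1939 lay higher and 2061 lower for mLIF, 2667 and 2619 for mOSM, and 2993 and 3206 for hlOSM. The 3 comparisons share the PBS libraries and are given side by side for that reason only. The number called was 0 with mLIF when PBS replicate 3 or mLIF replicate 3 was left out, and 10 with mOSM, all higher, after rescaling by the trimmed mean of M-values, which also kept the 6 genes called before.

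**Figure D1:**
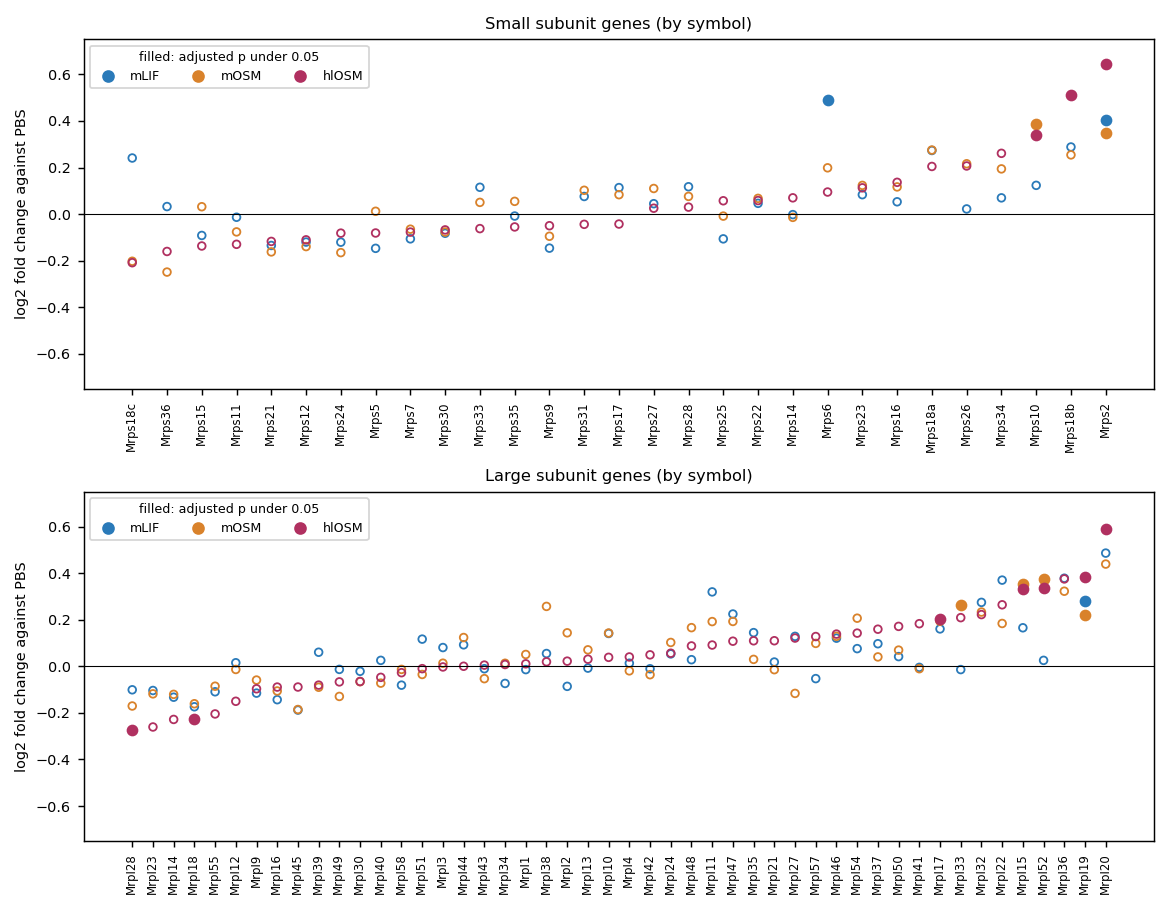
Log2 fold change against PBS (y axis) of every mitoribosomal gene (x axis, ordered by the change with hlOSM), for the 29 small subunit genes in the upper and the 48 large subunit genes in the lower panel. Colours give the cytokine and filled points an adjusted p under 0.05; most points are open and lie close to 0, and of the filled points only Mrpl18 and Mrpl28 with hlOSM lie below it.

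In all, 12 of the 77 genes (15.6%) were called with at least 1 cytokine, against 42.6% of all genes. They were 4 of the small subunit (Mrps2, Mrps6, Mrps10, Mrps18b) and 8 of the large subunit (Mrpl15, Mrpl17, Mrpl18, Mrpl19, Mrpl20, Mrpl28, Mrpl33, Mrpl52). Mrps2 and Mrpl19 were called with all 3 cytokines. Of the 6 genes called with mOSM, 5 were also called with hlOSM (83.3% of the mOSM calls and 50% of the hlOSM calls). Of the 12, 10 belong to the 46 members with a bacterial counterpart and 2, Mrpl52 and Mrps18b, to the 31 without.

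In the small subunit, Mrps2 changed most with hlOSM. It encodes the counterpart of bacterial protein S2, at the junction of head and body of the subunit (ENSMUSG00000035772, chr2:28468066-28471178, plus strand, mm10). Its normalized counts were 99, 95 and 88 in PBS, 120, 115 and 140 in mLIF, 123, 126 and 111 in mOSM, and 138, 142 and 163 in hlOSM. Every cytokine library lay above every PBS library, and the hlOSM libraries stood highest but for an overlap of mLIF replicate 3 with them. The log2 fold change was 0.40 with mLIF (SE 0.0965, adjusted p = 0.0103), 0.35 with mOSM (SE 0.0965, adjusted p = 0.00801) and 0.64 with hlOSM (SE 0.0965, adjusted p = 1.53e-05). The calls with mOSM and hlOSM were kept whichever library was left out, whereas the mLIF call was lost without PBS replicate 3 (adjusted p = 0.0526) and without mLIF replicate 3 (adjusted p = 0.0845).

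Mrps10, the counterpart of bacterial S10 in the head of the subunit (ENSMUSG00000034729, chr17:47368887-47381417, plus strand), had 125, 133 and 128 in PBS, 140, 133 and 148 in mLIF, 173, 161 and 171 in mOSM, and 158, 165 and 166 in hlOSM. Both OSM groups lay above all PBS and mLIF libraries. Against PBS, it rose by 0.38 on the log2 scale with mOSM (SE 0.0760, adjusted p = 0.00046) and by 0.34 after hlOSM (SE 0.0760, adjusted p = 0.00122), beside 0.12 for mLIF (SE 0.0760, adjusted p = 0.317). Both OSM calls were kept without any single library.

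Mrps18b encodes a protein of the small subunit that has no equivalent position in bacteria, although it is related to bacterial S18 (ENSMUSG00000024436, chr17:35910379-35916389, minus strand). Its normalized counts were 78, 86 and 95 in PBS, 109, 103 and 104 in mLIF, 105, 109 and 95 in mOSM, and 123, 113 and 134 in hlOSM. All hlOSM libraries exceeded all others. Its rise on the log2 scale was 0.51 with hlOSM (SE 0.0981, adjusted p = 0.000272), while 0.29 with mLIF (adjusted p = 0.0638) and a value of 0.25 for mOSM (adjusted p = 0.0527) missed the threshold. Exons of a gene on the other strand, Gm16279, cover 30.5% of its exonic bases, and the strand setting of the counting is not given in the sources used here, so reads of the pair may not have been told apart.

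Mrps6, the counterpart of bacterial S6, was the only member called with mLIF alone (ENSMUSG00000039680, chr16:92058270-92112227, plus strand). It had 50, 43 and 38 in PBS, 59, 62 and 63 in mLIF, 49, 53 and 48 in mOSM, and 41, 42 and 58 in hlOSM. The mLIF libraries stood above all others. It rose by 0.49 on the log2 scale with mLIF (SE 0.143, adjusted p = 0.0322), beside 0.20 for mOSM (adjusted p = 0.316) and 0.09 for hlOSM (adjusted p = 0.637). The call was lost without PBS replicate 2 or 3 (adjusted p = 0.0765 and 0.151) and without mLIF replicate 1, 2 or 3 (adjusted p = 0.0661, 0.0872 and 0.113), and 19.9% of its exonic bases lie in exons of other genes on the same strand.

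In the large subunit, 3 genes rose with both OSM proteins. Mrpl15 (ENSMUSG00000033845, chr1:4773206-4785739, minus strand), the counterpart of bacterial L15, had 125, 136 and 147 in PBS, 154, 150 and 153 in mLIF, 179, 177 and 165 in mOSM, and 172, 162 and 179 in hlOSM. Its PBS libraries were the lowest, mLIF lay between, and both OSM groups were highest. Log2 fold changes were 0.35 with mOSM (SE 0.0789, adjusted p = 0.0015) and 0.33 with hlOSM (SE 0.0789, adjusted p = 0.00212), and 0.17 with mLIF did not pass (adjusted p = 0.189). Both OSM calls were kept without any single library.

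Mrpl19, the counterpart of bacterial L19 (ENSMUSG00000030045, chr6:81957851-81965958, minus strand), had 145, 156 and 153 in PBS, 170, 185 and 197 in mLIF, 180, 169 and 180 in mOSM, and 211, 190 and 193 in hlOSM. No cytokine library reached down to the PBS libraries. The log2 fold change was 0.28 with mLIF (SE 0.0766, adjusted p = 0.0234), 0.22 with mOSM (SE 0.0766, adjusted p = 0.0326) and 0.38 with hlOSM (SE 0.0766, adjusted p = 0.000396). The hlOSM call held without any single library. The mLIF call was lost without PBS replicate 1 or 3 (adjusted p = 0.0807 and 0.0577) or mLIF replicate 2 or 3 (adjusted p = 0.0716 and 0.136), and the mOSM call without PBS replicate 1 or 3 (adjusted p = 0.115 and 0.0578) or mOSM replicate 1 or 3 (adjusted p = 0.094 and 0.0707). Exons of Gcfc2 on the other strand cover 36% of the exonic bases of Mrpl19.

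Mrpl52, a protein specific to mitochondria (ENSMUSG00000010406, chr14:54426909-54429756, plus strand), had 90, 91 and 90 in PBS, 95, 92 and 89 in mLIF, 116, 126 and 111 in mOSM, and 108, 101 and 137 in hlOSM. PBS and mLIF libraries overlapped, and all OSM libraries were above them. The log2 fold change was 0.38 with mOSM (SE 0.103, adjusted p = 0.00763) and 0.34 with hlOSM (SE 0.103, adjusted p = 0.0132), beside 0.03 with mLIF (adjusted p = 0.904). The hlOSM call was lost without hlOSM replicate 3, the highest library (adjusted p = 0.114).

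Mrpl33, the counterpart of bacterial L33 (ENSMUSG00000106918, chr5:31596935-31664384, plus strand), had 158, 160 and 141 in PBS, 156, 146 and 152 in mLIF, 183, 174 and 195 in mOSM, and 160, 176 and 196 in hlOSM. Only the mOSM libraries were clear of PBS. On the log2 scale it rose by 0.27 with mOSM (SE 0.0842, adjusted p = 0.0192), beside 0.21 for hlOSM (adjusted p = 0.0545) and −0.01 for mLIF (adjusted p = 0.937), and the mOSM call was lost without PBS replicate 3 (adjusted p = 0.101) or mOSM replicate 3 (adjusted p = 0.0709).

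The remaining 4 genes of the large subunit were called with hlOSM alone. Mrpl20, the counterpart of bacterial L20 (ENSMUSG00000029066, chr4:155802878-155809975, plus strand), had 20, 28 and 24 in PBS, 38, 28 and 36 in mLIF, 30, 35 and 33 in mOSM, and 39, 34 and 36 in hlOSM. It had the lowest level of the 12 genes and the largest rise of the large subunit, with a log2 fold change of 0.59 with hlOSM (SE 0.168, adjusted p = 0.00827), beside 0.49 with mLIF (adjusted p = 0.0685) and 0.44 with mOSM (adjusted p = 0.0511). Leaving out PBS replicate 1 ended the hlOSM call (adjusted p = 0.0516). Mrpl17, a protein at the rim of the exit tunnel (ENSMUSG00000030879, chr7:105803206-105811099, minus strand), had 188, 207 and 207 in PBS, 235, 220 and 218 in mLIF, 219, 216 and 255 in mOSM, and 238, 230 and 224 in hlOSM. All 9 cytokine libraries exceeded PBS, by a log2 fold change of 0.20 with hlOSM (SE 0.0747, adjusted p = 0.038), beside 0.16 with mLIF (adjusted p = 0.178) and 0.19 with mOSM (adjusted p = 0.0532), and the call was lost without PBS replicate 1 (adjusted p = 0.162), hlOSM replicate 1 (adjusted p = 0.116) or hlOSM replicate 2 (adjusted p = 0.0745).

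Mrpl28 and Mrpl18 were the members that fell. Mrpl28, the counterpart of bacterial L28 (ENSMUSG00000024181, chr17:26123500-26126613, plus strand), had 167, 151 and 145 in PBS, 150, 142 and 139 in mLIF, 127, 130 and 155 in mOSM, and 117, 132 and 134 in hlOSM. Its hlOSM libraries were all under PBS, with a log2 fold change of −0.27 (SE 0.0911, adjusted p = 0.0224), and the call was lost without PBS replicate 1 (adjusted p = 0.111) or hlOSM replicate 1 (adjusted p = 0.113). Mrpl18 (ENSMUSG00000057388, chr17:12911349-12916345, minus strand), the counterpart of the bacterial protein that binds the smallest ribosomal RNA, had 249, 260 and 292 in PBS, 251, 235 and 223 in mLIF, 224, 221 and 273 in mOSM, and 235, 241 and 208 in hlOSM. All hlOSM libraries were below PBS, with a log2 fold change of −0.23 (SE 0.0862, adjusted p = 0.0425). This call lay close to the threshold and was lost without PBS replicate 2 or 3 (adjusted p = 0.063 and 0.196), mLIF replicate 2 (adjusted p = 0.0522), or hlOSM replicate 1 or 3 (adjusted p = 0.0546 and 0.189). Changes of Mrpl28 and Mrpl18 with mLIF and mOSM ran from −0.10 to −0.17 and did not pass.

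**Figure D2:**
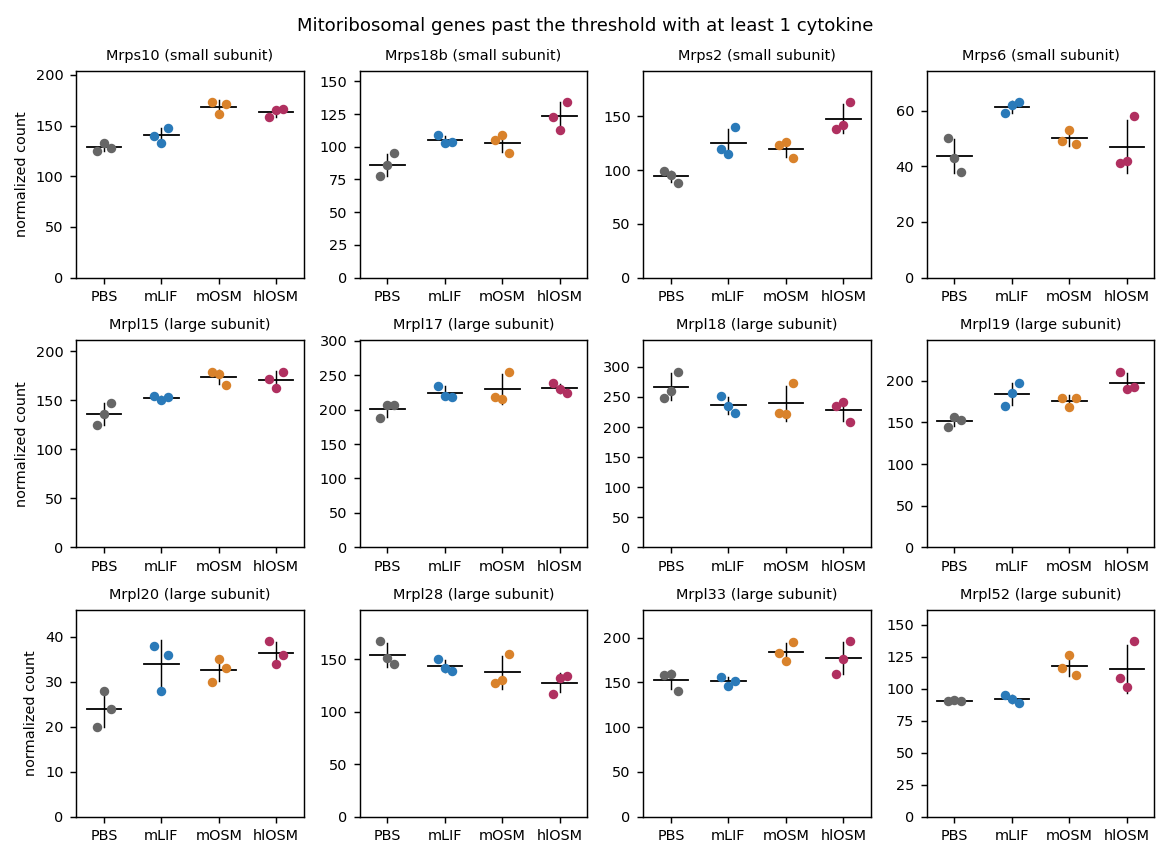
Normalized count (y axis, from 0) of the 12 mitoribosomal genes called with at least 1 cytokine, in each of the 12 libraries (points) of the 4 conditions (x axis), with the mean (horizontal line) and SD (vertical line) of the 3 libraries. Mrps2 lies between 88 and 99 in PBS and between 138 and 163 with hlOSM, and Mrpl18 and Mrpl28 are lower with hlOSM than in PBS. Mrps6 is called with mLIF alone, and its highest hlOSM library lies just under the mLIF libraries.

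Several members known for a role of their own were not called with any cytokine. The stalk recruits translation factors to the large subunit, and its 3 measured proteins had 0 calls, with 1, 0 and 0 genes at an unadjusted p under 0.05 with mLIF, mOSM and hlOSM. Mrpl12 had a mean of 164 ± 7.77 in PBS and 147 ± 4.93 with hlOSM (SD, n = 3), a log2 fold change of −0.15 (95% interval −0.31 to 0.01, adjusted p = 0.133). Mrpl10 moved by 0.14, 0.14 and 0.04 with mLIF, mOSM and hlOSM (adjusted p = 0.312, 0.222 and 0.756), and Mrpl11 by 0.32, 0.19 and 0.09 (adjusted p = 0.124, 0.287 and 0.617). Mrps12, in the decoding centre, moved by −0.12, −0.14 and −0.11 (adjusted p = 0.665, 0.532 and 0.606). Mrpl45, which ties the exit site to the inner membrane, moved by −0.19, −0.19 and −0.09 (adjusted p = 0.183, 0.117 and 0.457), and Mrpl58, a peptidyl-tRNA hydrolase that frees stalled chains, by −0.08, −0.01 and −0.03 (adjusted p = 0.627, 0.933 and 0.843).

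The 3 genes of the S18 family differed in level and in the size of their estimates. Mrps18c, the counterpart of bacterial S18, had 15, 12 and 15 in PBS, 18, 16 and 16 in mLIF, 11, 13 and 12 in mOSM and 10, 13 and 13 in hlOSM, with changes of 0.24, −0.20 and −0.21 and 95% intervals that reached from −0.68 to 0.71 over the comparisons. Mrps18a, which by structure lies in the large subunit despite its symbol, had 91, 97 and 88 in PBS, 122, 100 and 113 in mLIF, 106, 122 and 107 in mOSM, and 99, 98 and 123 in hlOSM. All its cytokine libraries lay above PBS, by 0.27, 0.28 and 0.20, and none of these changes passed (adjusted p = 0.102, 0.0508 and 0.132). Mrps18b, described above, was the member of the family that passed with hlOSM.

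Mrps30, also placed in the large subunit by structure, had the highest mean level of the 77 genes before division by length and changed by −0.08, −0.08 and −0.07 with mLIF, mOSM and hlOSM, with 95% intervals between −0.21 and 0.06. Mrps36, now counted as a part of the alpha-ketoglutarate dehydrogenase complex rather than of the ribosome, changed by 0.03, −0.25 and −0.16 with intervals from −0.77 to 0.55, too wide at normalized counts of 10 to 21 to separate a rise from a fall. Of 5 structural proteins of the mitoribosome whose symbols do not begin with Mrp, none was called with any cytokine, and 1, 0 and 1 had an unadjusted p under 0.05 with mLIF, mOSM and hlOSM. With hlOSM, Dap3, a GTP-binding protein of the small subunit, changed by −0.15 (adjusted p = 0.123), Ptcd3 by −0.13 (adjusted p = 0.068), Chchd1 by 0.14 (adjusted p = 0.224), Aurkaip1 by −0.02 (adjusted p = 0.835) and Gadd45gip1, of the large subunit, by 0.08 (adjusted p = 0.526).

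Small and large subunit were then compared across the 4 conditions. With mLIF, mOSM and hlOSM, 2, 2 and 3 of the 29 small subunit genes rose and 0 fell, while of the 48 large subunit genes 1, 4 and 5 rose and 0, 0 and 2 fell. As shares called, this was 6.90%, 6.90% and 10.3% of the small and 2.08%, 8.33% and 14.6% of the large subunit. At an unadjusted p under 0.05 there were 4, 4 and 4 genes of the small and 8, 9 and 10 of the large subunit. As shares, this was 13.8% of the small subunit with each cytokine and 16.7%, 18.8% and 20.8% of the large subunit. Of all genes, 25.7%, 41.1% and 46.5% reached it. The median log2 fold change was 0.0446, 0.0547 and −0.0427 for the small and 0.0256, 0.0351 and 0.0394 for the large subunit. The negative median of the small subunit with hlOSM turned positive without PBS replicate 3 (0.0035), hlOSM replicate 1 (0.0211) or hlOSM replicate 2 (0.0141) and was −0.01 without PBS replicate 1 or hlOSM replicate 3, and that of the large subunit with hlOSM rose to 0.0770 without PBS replicate 3 and 0.0719 without hlOSM replicate 2. With mOSM, the median of the small subunit was 0.0188 without mOSM replicate 3 and 0.0943 without PBS replicate 3, and that of the large subunit 0.0078 without PBS replicate 2, 0.0621 without PBS replicate 3 and 0.0855 without mOSM replicate 1. For mLIF, the median of the small subunit was 0.0116 without PBS replicate 2, 0.0676 without PBS replicate 3 and 0.0174 without mLIF replicate 1, and that of the large subunit 0.0169 without PBS replicate 2, 0.0420 without PBS replicate 3 and 0.0171 without mLIF replicate 1.

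The mean log2 level of the small subunit genes minus that of the large subunit genes, taken within each library on the scale log2(normalized count + 1), was −0.21 ± 0.020 in PBS, −0.21 ± 0.016 with mLIF, −0.22 ± 0.023 with mOSM and −0.22 ± 0.014 with hlOSM (SD, n = 3). Over the 12 libraries it ranged from −0.24 to −0.19, with ranges of all 4 conditions overlapping. The ratio of the summed small to the summed large subunit values lay between 0.538 and 0.560 in every library. Added together, the 77 genes made up 0.325% to 0.337% of the library total in PBS, 0.338% to 0.350% with mLIF, 0.343% to 0.355% with mOSM and 0.342% to 0.358% with hlOSM, so that the PBS libraries had the lowest shares. Before division by the library total, the sums of the conditions overlapped. They were 9293 to 9814 in PBS, 9442 to 9839 with mLIF, 9471 to 10181 with mOSM and 9693 to 9877 with hlOSM. These sums and differences over members are descriptions without a test.

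**Figure D3:**
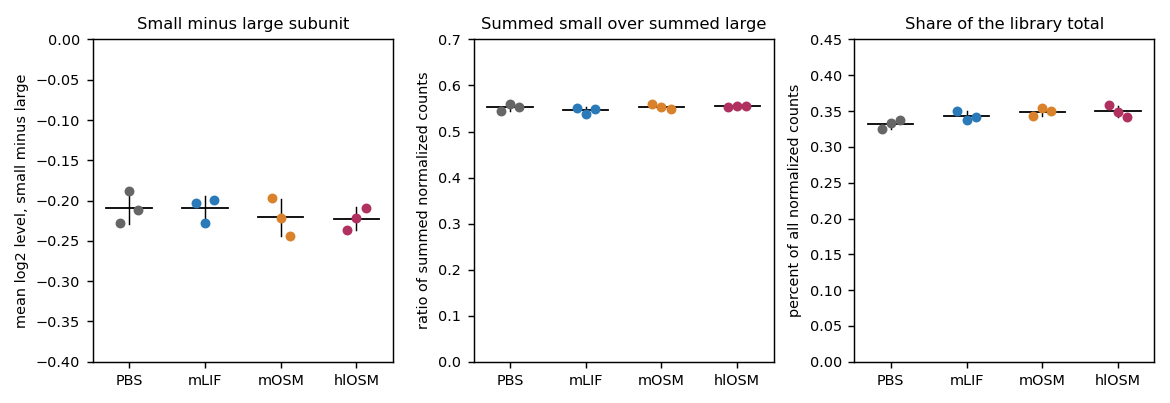
Each library (points) by condition (x axis), with the mean (horizontal line) and SD (vertical line) of 3 libraries, for the mean log2 level of small minus large subunit genes (left), the ratio of summed normalized counts of small over large subunit genes (middle) and the percentage of the library total held by the 77 genes (right). The left and middle panels show overlapping conditions, and on the right the PBS libraries, at 0.325% to 0.337%, lie below the cytokine libraries. The sums of the 77 genes before division by the library total overlap between conditions.

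The second question is whether the cytokines differed from each other. Against mLIF, mOSM raised 3 members and lowered 0, beside 11.8% of all genes called. They were Mrps10 (0.26, SE 0.0760, adjusted p = 0.0254), Mrpl52 (0.35, SE 0.103, adjusted p = 0.0278) and Mrpl33 (0.28, SE 0.0842, adjusted p = 0.0317). For each of these the mOSM libraries given above lie clear of the mLIF libraries. Each call rested on several libraries. Mrps10 was lost without mLIF replicate 1 or 2 or mOSM replicate 1 or 3 (adjusted p = 0.0763, 0.134, 0.0902 and 0.0645), Mrpl52 without mLIF replicate 1, 2 or 3 or mOSM replicate 1 or 2 (0.0553, 0.0782, 0.0913, 0.0615 and 0.113), and Mrpl33 without mLIF replicate 1, 2 or 3 or mOSM replicate 1 or 3 (0.059, 0.126, 0.0749, 0.0719 and 0.119).

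Against mLIF, hlOSM raised 1 member, Mrpl52 (0.31, SE 0.103, adjusted p = 0.0415), and lowered 0, beside 16.6% of all genes called. At an unadjusted p under 0.05 there were 10 members (13.0%), beside 28.6% of all genes. The call of Mrpl52 was lost without mLIF replicate 1, 2 or 3 (adjusted p = 0.0727, 0.102 and 0.119), mOSM replicate 1 (0.0516), or hlOSM replicate 1 or 3 (0.0524 and 0.246). Mrps6, called with mLIF alone, was lower with hlOSM than with mLIF by −0.39 (SE 0.143, adjusted p = 0.0640), which did not pass. Against mOSM, hlOSM changed 0 members at an adjusted p under 0.05 by limma, beside 0.106% of all genes. An unadjusted p under 0.05 was reached by 5, namely Mrps2 (0.30, adjusted p = 0.428), Mrps18b (0.26, adjusted p = 0.519), Mrpl41 (0.19), Mrpl19 (0.17) and, named after its value was seen, Mrpl38 (−0.24). These 5 are 6.49% of the members, beside 7.49% of all genes at the same limit. The 95% interval of the difference between hlOSM and mOSM was 0.10 to 0.50 for Mrps2 and 0.05 to 0.46 for Mrps18b. Both intervals are unadjusted and leave out no change because the genes were picked by their unadjusted p. Whether the step from mOSM to hlOSM differed from the step from PBS to mLIF was tested by an interaction term, with 0 members past the threshold and a smallest adjusted p of 0.24, beside 0.167% of all genes past it. An unadjusted p under 0.05 was reached by 5 members (6.49%) and 11.5% of all genes.

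The upstream sequences of 4 members are shown because these genes differ in response and in the motifs that their promoters hold. They are the 250 bases before the annotated start, from RefSeq on GRCm38.p6, plus strand, in windows without annotated exons. Capitals mark a motif match. Mrps2 rose with every cytokine, Mrpl20 with hlOSM and Mrpl52 with both OSM proteins, whereas Mrpl45 was not called.
Mrps2, chr2:28467816-28468065: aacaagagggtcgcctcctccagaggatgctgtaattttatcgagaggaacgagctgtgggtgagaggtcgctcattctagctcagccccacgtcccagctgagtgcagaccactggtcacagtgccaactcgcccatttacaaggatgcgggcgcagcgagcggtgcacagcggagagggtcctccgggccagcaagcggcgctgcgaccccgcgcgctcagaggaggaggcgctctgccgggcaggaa
Mrpl20, chr4:155802628-155802877: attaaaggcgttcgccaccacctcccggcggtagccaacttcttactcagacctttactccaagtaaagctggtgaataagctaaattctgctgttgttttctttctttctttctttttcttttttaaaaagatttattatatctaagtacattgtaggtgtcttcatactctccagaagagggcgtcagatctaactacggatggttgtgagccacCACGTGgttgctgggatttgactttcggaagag
Mrpl52, chr14:54426659-54426908: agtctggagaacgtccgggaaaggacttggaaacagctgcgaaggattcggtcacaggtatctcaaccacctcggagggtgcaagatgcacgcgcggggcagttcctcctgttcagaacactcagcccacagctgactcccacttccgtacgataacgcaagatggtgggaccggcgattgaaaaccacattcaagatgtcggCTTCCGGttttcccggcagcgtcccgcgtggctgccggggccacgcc
Mrpl45, chr11:97315466-97315715: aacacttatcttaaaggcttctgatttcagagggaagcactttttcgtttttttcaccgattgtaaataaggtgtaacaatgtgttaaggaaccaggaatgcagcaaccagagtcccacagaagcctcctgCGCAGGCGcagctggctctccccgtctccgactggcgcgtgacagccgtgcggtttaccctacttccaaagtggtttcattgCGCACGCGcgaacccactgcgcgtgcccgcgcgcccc

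The window of Mrps2 held none of the 6 motifs searched, that of Mrpl20 an E-box whose leftmost base lies at −33 from the start, that of Mrpl52 an ETS core, on the other strand, at −47, and that of Mrpl45 the NRF1 core at −119 and −37. ETS factors such as GABP, NRF1 and YY1 are known activators of nuclear genes for mitochondrial proteins, MYC binds the E-box, and STAT factors are activated by LIF and OSM receptors. Windows from 250 bases before to 50 after the start were available for 68 of the 77 members and for 9435 protein-coding genes tested, and both strands were searched. CCGGAAG (ETS core) occurred in 33.8% of the members and 19.1% of the genes, CGCANGCG (NRF1 core) in 29.4% and 18.3%, and AAGATGGC (YY1 core) in 17.6% and 4.83%. AAGGTCA (ERR element) occurred in 5.88% and 2.78%, TTCNNNGAA (STAT element) in 8.82% and 6.73%, and CACGTG (E-box) in 7.35% and 10.4%. The median GC content of the windows was 58.2% in members and 61.3% in all genes. Of the 12 called members, 10 had a window. The ETS core was in 5 of these (Mrpl17, Mrpl18, Mrpl33, Mrpl52, Mrps18b), the NRF1 core in 2 (Mrpl17, Mrps18b), the E-box in 1 (Mrpl20), and the YY1, ERR and STAT letters in 0. A match describes the letters of the window and was not tested for binding.

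**Figure D4:**
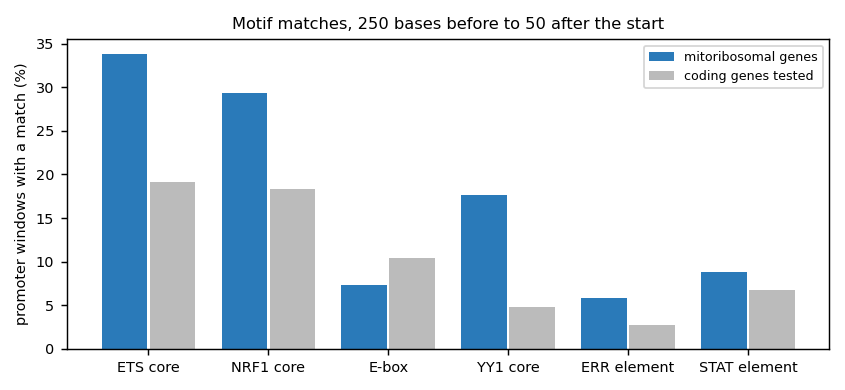
Share of promoter windows with a motif match (y axis, in percent) for 6 motifs (x axis), in 68 mitoribosomal genes and in 9435 protein-coding genes tested. The bars of the members are higher for the YY1 core (17.6% against 4.83%) and the ETS core (33.8% against 19.1%) and lower for the E-box (7.35% against 10.4%).

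Many mitoribosomal genes share a promoter region with another gene. Of the 77, 23 (29.9%) had a protein-coding gene on the opposite strand starting within 1000 bp upstream or a short way inside them. The share was 12.1% among the 11828 protein-coding genes tested. Some neighbours start inside the member and run across its start, such as Ighmbp2 at Mrpl21. Of the 23 neighbours, 21 were tested, and 0, 1 and 5 were called with mLIF, mOSM and hlOSM, 2 of the 5 higher. These are 0%, 4.76% and 23.8%, below the shares called among all genes given above. Mrps18b was the only called member with such a neighbour, Ppp1r10, a phosphatase 1 regulatory gene starting 45 bp away. With hlOSM, Mrps18b rose by 0.51 and Ppp1r10 fell by 0.42 on the log2 scale (adjusted p = 2.4e-05). The estimates with mLIF (0.29 and −0.19) and for mOSM (0.25 and −0.16) did not pass.

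Proteins that build the mitoribosome were called upward only, in shares not above the raised shares of all genes. Of 28 assembly factors, 1, 4 and 5 rose with mLIF, mOSM and hlOSM and 0 fell. The shares raised were 3.57%, 14.3% and 17.9%, beside 5.47%, 15.4% and 18.2% of all genes raised. Of all genes, 4.44%, 15.8% and 19.8% were lowered. Counting both directions, the shares of the assembly factors lay below those of all genes. Mpv17l2, an inner membrane protein needed for assembly, had 8, 9 and 10 in PBS, 16, 10 and 13 in mLIF, 13, 18 and 19 in mOSM, and 18, 17 and 14 in hlOSM, a rise of 0.81 with mOSM (SE 0.245, adjusted p = 0.0146) and 0.79 with hlOSM (SE 0.245, adjusted p = 0.0142). Its PBS values lay at or below the limit of 10, and it passed the filter only through the cytokine libraries, where it was higher. Its rises are among the 4 and 5 counted above. The mOSM call of Mpv17l2 was lost without PBS replicate 1 (0.0513) or mOSM replicate 2 or 3 (0.0582 and 0.0552), and the hlOSM call without hlOSM replicate 1 (0.0547). Gtpbp6, a GTPase that splits the subunits, had 60, 52 and 51 in PBS, 62, 67 and 77 in mLIF, 79, 88 and 76 in mOSM, and 74, 72 and 82 in hlOSM, with rises of 0.57 (adjusted p = 0.00064) and 0.48 (adjusted p = 0.0024) with the OSM proteins, kept without any single library. The other factors that rose were Fastkd2, an RNA-binding protein of the large ribosomal RNA, with 0.26, 0.27 and 0.33 (adjusted p = 0.0332, 0.00827 and 0.00128), the RNA helicase Dhx30 with 0.17 and 0.21 with mOSM and hlOSM (adjusted p = 0.035 and 0.0115), and the GTPase Noa1 with 0.32 with hlOSM (adjusted p = 0.0298). Of these, the calls of Fastkd2 with mLIF, Dhx30 with mOSM and Noa1 with hlOSM were lost when single PBS or cytokine libraries were left out, and kept in 7, 8 and 8 of 12 such fits, with the highest adjusted p, 0.147, 0.103 and 0.166, without PBS replicate 3, mOSM replicate 3 and hlOSM replicate 1.

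Of 14 translation factors, 1 rose with every cytokine, and 0, 1 and 2 fell with mLIF, mOSM and hlOSM. The shares called, 7.14%, 14.3% and 21.4%, were below those of all genes. The gene that rose was Slirp, which with its partner stabilizes mitochondrial mRNAs, with 35, 34 and 35 in PBS, 55, 47 and 69 in mLIF, 45, 51 and 51 in mOSM and 56, 60 and 45 in hlOSM. Its log2 fold change was 0.68, 0.49 and 0.61 (adjusted p = 0.00523, 0.0149 and 0.00248), and the mLIF call was lost without mLIF replicate 3 (0.0556) and the mOSM call without mOSM replicate 2 (0.0508). With hlOSM, the elongation factor gene Gfm1 changed by −0.17 (adjusted p = 0.0251) and the release factor gene Mtrf1 by −0.34 (adjusted p = 0.0285). Gfm1 was lost without PBS replicate 1 or 3 or hlOSM replicate 1 (0.0644, 0.116 and 0.114), and Mtrf1 without PBS replicate 1 or 2 or hlOSM replicate 3 (0.063, 0.0725 and 0.111). The initiation factor gene Mtif2 fell with mOSM, by 0.23 on the log2 scale (adjusted p = 0.0108), and was lost without PBS replicate 3 or mOSM replicate 2 (0.0528 and 0.0727).

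Of 17 mitochondrial aminoacyl-tRNA synthetases, which load tRNAs with amino acids, 0 were called with mLIF or mOSM (2 and 2 at an unadjusted p under 0.05) and 3 fell with hlOSM. The share lowered with hlOSM, 17.6%, was near the 19.8% of all genes. Vars2 had 135, 143 and 150 in PBS and 108, 113 and 100 in hlOSM, a change of −0.41 (adjusted p = 0.00154). Iars2 had 680, 726 and 718 in PBS and 601, 598 and 591 in hlOSM, a change of −0.25 (adjusted p = 0.000921). For both genes the hlOSM libraries lay below PBS, and the calls were kept without any single library.

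Of 10 genes for maintenance and transcription of mitochondrial DNA, 0 were called with mLIF (2 at an unadjusted p under 0.05), 1 fell with mOSM and 3 fell with hlOSM. The shares lowered with mOSM and hlOSM were 10% and 30%, beside 15.8% and 19.8% of all genes. Mgme1, a nuclease of mitochondrial DNA replication, had 241, 217 and 220 in PBS and 167, 193 and 182 in hlOSM, a change of −0.32 (adjusted p = 0.00225) kept without any single library. Polg2, the accessory subunit of the mitochondrial DNA polymerase, changed by −0.47 (adjusted p = 0.0418), and the catalytic subunit gene Polg by −0.17 (adjusted p = 0.0486). Polrmt, the mitochondrial RNA polymerase, fell with mOSM by 0.20 on the log2 scale (adjusted p = 0.0494). The calls of Polg2, Polg and Polrmt lay at the threshold and were kept in 6, 3 and 2 of the 12 fits without a library. Each was lost without PBS replicate 3 (adjusted p = 0.0875, 0.165 and 0.206).

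Of 8 regulators of nuclear genes for mitochondrial proteins, 1 rose and 0 fell with mLIF, 3 rose and 2 fell with mOSM, and 1 rose and 2 fell with hlOSM. The shares called were 12.5%, 62.5% and 37.5%, beside 9.91%, 31.2% and 37.9% of all genes, so that those with mLIF and hlOSM lay near the background. Ppargc1a, the coactivator PGC-1α, had 419, 422 and 413 in PBS, 363, 374 and 382 in mLIF, 257, 244 and 261 in mOSM, and 225, 225 and 240 in hlOSM. Its conditions did not overlap at all, with changes of −0.72 with mOSM (adjusted p = 5.26e-09) and −0.86 with hlOSM (adjusted p = 2.05e-10), beside −0.16 with mLIF (adjusted p = 0.0821). The related Pprc1 and Ppargc1b rose with mOSM by 0.27 (adjusted p = 0.000913) and 0.45 (adjusted p = 0.0225), and the Ppargc1b call was lost without PBS replicate 1 or 2 or mOSM replicate 1 (0.165, 0.0671 and 0.126).

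Myc, a transcription factor that drives ribosome production, had 262, 239 and 267 in PBS, 307, 316 and 357 in mLIF, 328, 406 and 290 in mOSM, and 357, 304 and 383 in hlOSM, rises of 0.35, 0.40 and 0.44 (adjusted p = 0.0272, 0.00336 and 0.00134). The mLIF call of Myc was lost without PBS replicate 2 or mLIF replicate 2 or 3 (0.103, 0.0524 and 0.153). The estrogen-related receptor gene Esrra changed by −0.21 with mOSM (adjusted p = 0.0425) and Yy1 by −0.16 with hlOSM (adjusted p = 0.0449), both lost without PBS replicate 3 (0.193 and 0.135) and kept in 2 and 6 of the 12 fits without a library. Nrf1 changed by −0.20, −0.05 and −0.13 (adjusted p = 0.0902, 0.662 and 0.172) and Gabpa, an ETS factor subunit, by 0.00, −0.07 and −0.09 (adjusted p = 0.984, 0.339 and 0.188).

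The mitoribosomal genes were set beside the 2 groups most like them in function, as a description without a test of the difference. Of 78 cytosolic ribosomal protein genes, 1, 8 and 19 rose and 1, 1 and 1 fell with mLIF, mOSM and hlOSM, with medians of 0.0263, 0.0913 and 0.141. Of 90 nuclear-encoded respiratory chain genes taken by symbol, 0, 1 and 1 rose and 0, 3 and 9 fell, with medians of −0.0511, −0.0739 and −0.0790, and with mLIF 11 reached an unadjusted p under 0.05. The symbols used also take in ATP synthase genes and complex I assembly factors (Ndufaf), so not all of the 90 are subunits of the chain. The median of the mitoribosomal genes with hlOSM, 0.0299, lay between these. Counting both directions, all 3 groups had a smaller share called than all genes in each comparison. By direction, 1.28%, 10.3% and 24.4% of the cytosolic genes rose, beside 5.47%, 15.4% and 18.2% of all genes. With hlOSM, their raised share was thus above that of all genes. Of the respiratory chain genes, 0%, 3.33% and 10% fell, beside 4.44%, 15.8% and 19.8% of all genes.

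**Figure D5:**
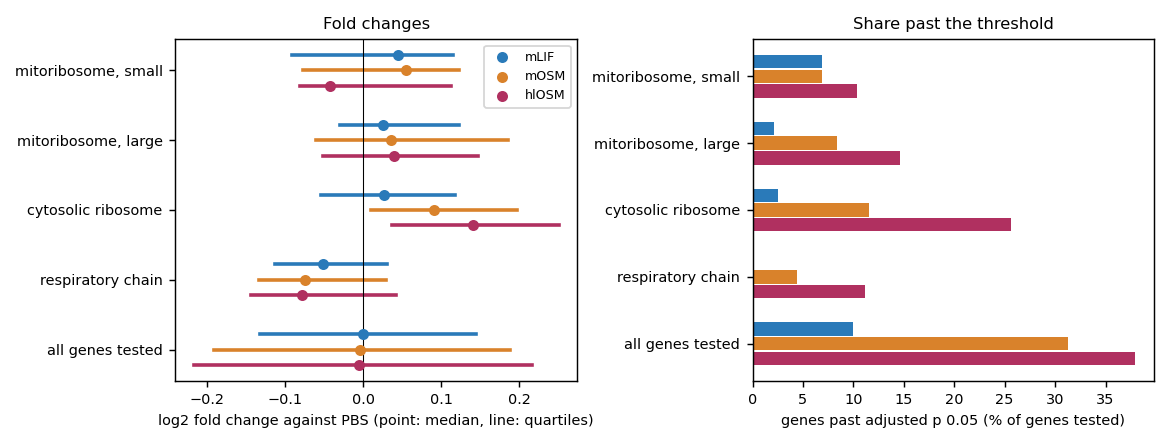
Left, median (point) and quartiles (line) of the log2 fold change against PBS (x axis) for small and large mitoribosomal subunits, cytosolic ribosomal proteins, nuclear-encoded respiratory chain genes taken by symbol (with ATP synthase and assembly factor genes) and all genes tested, with a colour per cytokine. Right, share of each group past an adjusted p of 0.05 (x axis, in percent); for hlOSM it is 10.3% and 14.6% for the small and large mitoribosomal subunits and 37.9% for all genes.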

How the data were processed

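RNA of 12 libraries, 3 per condition, was sequenced from a stranded total RNA kit. Groups and replicate numbers follow the titles of the samples. Reads were trimmed by the authors with Trimmomatic, aligned to mm10 with STAR 2.7.7a and counted per gene with featureCounts 1.6.5, leaving out reads on several genes or places. The values deposited by the authors are scores on a normalized count scale, rounded to whole numbers, with the scaling method and the strand setting not given in the sources used here. They are not read counts, so no count model was fitted and counting error is unknown. The table holds 0 columns of other samples.

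Tests used limma 3.58.1 in R 4.3.3 (lmFit and trended eBayes) on log2(value + 1), in a joint fit of the 4 conditions over 13184 genes, two-sided, with Benjamini-Hochberg adjustment over all of them and a threshold of 0.05. The procedure was tested on simulated data. Fold changes are on the log2(value + 1) scale, which understates changes of low genes. Members and gene lists were chosen with earlier results of these data known, so no p was computed over a list. Coordinates of genes follow the deposited table (mm10). Exons and lengths came from GENCODE M21, where 22676 of 22876 genes found had the same start and end.

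Named genes were, per cytokine and subunit, the 4 largest rises and falls past the threshold, up to 5 members called between cytokines, 11 fixed members and 5 structural proteins without an Mrp symbol, the 3 highest and lowest per exonic length, the 2 largest rises and falls with hlOSM of the other lists, and 8 regulators. Genes outside this rule were named where a count was 5 or lower. Of the genes that the rule takes, 1 is not reported here. Alternatives were other pseudocounts and filters, rescaling, a robust fit, fits of the compared libraries alone, the replicate number as a block, stricter thresholds, and each library left out in turn.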

Additional observations from a re-analysis of the deposited data

How the results depend on the processing

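Of the 19 calls of members against PBS, 9 were past the threshold whichever library was left out, and 14 were past it in each of the other fits. No direction of a called gene was reversed. The number of members called with mLIF was 3, with 0 at an adjusted p under 0.01 and 0 to 3 when a library was left out. With mOSM it was 6, with 10 after rescaling by the trimmed mean of M-values and 5 to 9 when a library was left out. With hlOSM it was 10, with 6 at an adjusted p under 0.01 and 7 to 11 when a library was left out. For mOSM against mLIF it was 3, with 1 at a minimum log2 fold change of 0.32, 0 at an adjusted p under 0.01 and 0 to 3 without a library. For hlOSM against mLIF it was 1, with 2 after trimmed-mean rescaling and 2 after quantile normalization, with 0 without a filter, in a fit of the libraries compared, at a minimum log2 fold change of 0.32 or at an adjusted p under 0.01, and 0 to 1 without a library. Stricter thresholds lower these counts by construction, and the cause of the other shifts was not tested. With the replicate number as a block, 14 of the 19 calls were past the threshold, and the counts were 1 with mLIF, 0 for mOSM against mLIF and 0 for hlOSM against mLIF. The calls against PBS lost with the block were Mrps6 and Mrpl19 with mLIF, Mrpl19 with mOSM, and Mrpl17 and Mrpl18 with hlOSM. Mrpl18 was also lost after trimmed-mean rescaling and Mrpl17 after quantile normalization. In the other lists, the block ended the calls of Fastkd2 with mLIF and of Dhx30, Polrmt and Esrra with mOSM. With hlOSM it ended those of Noa1, Mtrf1, Polg, Polg2 and Yy1. Same-numbered libraries deviated in opposite ways, with correlations of −0.41 to −0.15 over 18 pairs, and were not taken as pairs. Of the spread inside a condition, 1.70% lay between replicate numbers, where 25% would be expected of unrelated libraries. Whether an effect of the number was removed before deposit was not tested. If so, standard errors and p-values without the block are too small.

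The level of small minus large subunit genes was −0.21, −0.21, −0.22 and −0.22 in PBS, mLIF, mOSM and hlOSM. As a log2 ratio of summed levels it was −0.86, −0.87, −0.85 and −0.85, since the sums cover fewer small subunit genes. Sorting genes by structure gave −0.23 in mLIF, a filter at 50 gave −0.19 in mOSM and −0.18 in hlOSM, and a pseudocount of 5 gave −0.20 in hlOSM. The median log2 fold change of the large subunit with mLIF was 0.0184 with a filter at 50 and −0.0028 after quantile normalization, which also gave 0.0227 (small) and 0.0097 (large) with mOSM, and that of the small subunit with hlOSM was 0.0299 with a filter at 50 and −0.0087 when sorted by structure. Leaving out a library gave medians of 0.0116 to 0.0676 (small, mLIF), 0.0169 to 0.0420 (large, mLIF), 0.0188 to 0.0943 (small, mOSM), 0.0078 to 0.0855 (large, mOSM), −0.0427 to 0.0211 (small, hlOSM) and 0.0356 to 0.0770 (large, hlOSM).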
